A study of Mus musculus with 24 samples.

Results

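Integrins and cadherins are the receptors by which a heart muscle cell holds on to its matrix and to its neighbours, and their messenger RNA was followed here in HL-1 cells with MuRF1 knocked down or not and with or without stretch. The choice of these families was made with earlier results of these data known. Within them, genes were chosen by symbol alone, as every row of the count table named Itga, Itgb or Cdh with its number or letter. This gave 49 of the 20351 genes in the table, of which 26 are integrins (18 alpha and 8 beta subunits) and 23 are cadherins. Of the cadherins, 18 are classical ones of type I or type II, whereas Cdh13, Cdh16, Cdh17, Cdh23 and Cdh26 carry the family symbol but belong to other branches. Expression was high enough to test for 31 of the 49 genes, comprising 24 integrins and 7 cadherins, of which 5 were classical.

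An integrin is a pair of an alpha and a beta subunit. The alpha subunit largely sets the ligand, such as laminin, collagen or proteins with the short RGD motif (fibronectin and vitronectin among them), and the beta subunit carries the tail to which talin, kindlin and the actin linkers bind. Classical cadherins join like cells through calcium-dependent contacts and hold the actin cytoskeleton through beta-catenin and alpha-catenin. In the heart, N-cadherin, the product of Cdh2, is the main cadherin of the intercalated disc, and integrins with the beta1 subunit lie at the costameres, where the sarcomere meets the membrane.

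HL-1 is a line of mouse atrial heart muscle cells that keeps dividing in culture, so a single line stands for the cell type throughout. All cells were grown on flexible plates coated with 0.02% gelatin and 0.5% fibronectin, itself an integrin ligand, and all received adenovirus at 30 infectious units per cell. Of the 4 groups of 6 libraries, the first carried a hairpin against MuRF1 (MuRF1 KD), a ubiquitin ligase of the sarcomere encoded by Trim63, and was stretched at 15% and 1 Hz for 60 min, 48 h after the virus. The second carried the same hairpin and was not stretched. The third carried a scrambled hairpin (control) and was stretched, and the fourth carried the scrambled hairpin and was not stretched. The series asks, by its title, what MuRF1 contributes to the transcriptional answer of cardiomyocytes to cyclic stretch. The labels name the stretch both uniaxial and biaxial, and they do not say whether replicates were separate cultures, so p-values measure only the spread between these libraries, which may be technical.

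Libraries held 23.6 to 54.8 M estimated counts, and Trim63 stood at 54.2 to 83.5 CPM (counts scaled to the depth of the library) in the 12 knockdown libraries, against 536 to 882 CPM in the 12 control libraries. The library of stretched control replicate 5 stood apart, with the lowest depth (23.6 M, against at least 37.7 M elsewhere) and 1.45% of its counts in mitochondrial genes, against 2.49% to 3.67% elsewhere. The counts of called members are therefore also given without it. The library codes in the labels contain a number that is shared by the 6 libraries of a group and by no other group. What that number stands for is not given, and its effect cannot be told apart from that of the group. The codes also carry a letter, a for replicates 1 to 3 and b for replicates 4 to 6 of every group, so the counts of members are given within each letter too.

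Promoter sequences are shown because many of the members fell together in the knockdown cells. Promoter windows from RefSeq on GRCm38.p6, running from 250 bases before to 50 bases after the start of the gene, were found for 31 of the 49 members and for 19 of the 31 tested. Of the genes described below, 8 that fell in knockdown cells with and without stretch had 9 windows, since Itga3 has a pair of them, and 4 that rose in both had 4. The windows of Itga1, Itga3 and Itgb5, which were among the larger falls, and of Cdh24, the most abundant member that rose, are printed 5′ to 3′ on the strand of the gene. Capitals mark GC boxes, the letters GGGCGG on either strand, which Sp1-type factors bind.
Itga1, chr13:115101915-115102214, minus strand: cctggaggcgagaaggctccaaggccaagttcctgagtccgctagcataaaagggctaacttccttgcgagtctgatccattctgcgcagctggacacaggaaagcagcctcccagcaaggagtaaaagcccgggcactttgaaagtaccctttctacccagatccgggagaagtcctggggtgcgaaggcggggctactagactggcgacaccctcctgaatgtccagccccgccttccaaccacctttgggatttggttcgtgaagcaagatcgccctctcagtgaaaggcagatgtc
Itga3, chr11:95076665-95076964, minus strand: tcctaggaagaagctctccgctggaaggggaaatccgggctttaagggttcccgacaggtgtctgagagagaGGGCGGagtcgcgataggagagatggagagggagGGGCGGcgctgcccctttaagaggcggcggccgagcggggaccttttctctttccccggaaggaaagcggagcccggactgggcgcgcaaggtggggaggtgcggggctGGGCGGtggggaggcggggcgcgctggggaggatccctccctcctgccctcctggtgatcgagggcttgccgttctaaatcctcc
Itgb5, chr16:33829415-33829714, plus strand: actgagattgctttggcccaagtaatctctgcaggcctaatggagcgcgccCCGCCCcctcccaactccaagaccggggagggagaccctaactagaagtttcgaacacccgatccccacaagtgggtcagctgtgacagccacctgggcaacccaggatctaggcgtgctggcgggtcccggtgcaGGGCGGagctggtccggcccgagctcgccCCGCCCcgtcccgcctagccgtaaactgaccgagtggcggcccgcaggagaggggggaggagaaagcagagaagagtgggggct
Cdh24, chr14:54641315-54641614, minus strand: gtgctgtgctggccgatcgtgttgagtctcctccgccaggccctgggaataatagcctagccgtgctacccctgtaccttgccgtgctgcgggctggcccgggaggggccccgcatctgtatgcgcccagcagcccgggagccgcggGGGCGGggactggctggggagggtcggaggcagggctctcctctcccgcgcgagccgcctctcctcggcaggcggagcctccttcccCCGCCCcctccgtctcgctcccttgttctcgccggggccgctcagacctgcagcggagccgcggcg

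The window of Itga1 held no match to any motif searched, whereas the printed ones of Itga3 and Itgb5 each held 3 GC boxes and that of Cdh24 held 2. A GC box was present in 5 of the 9 windows of genes that fell and in 3 of the 4 of genes that rose, against 35.7% of all 32851 promoters. The M-CAT motif (CATTCC), which TEAD factors bind, was present in 3 of the 9 and in 0 of the 4, against 14.7% of all promoters. The AP-1 motif (TGANTCA) was present in 1 of the 9, the window of Itga3 that is not printed, and in 0 of the 4, against 7.81%. The TATA box (TATAAA) was found in 0 of the 9 and 0 of the 4, against 13.6%, and the CArG box of serum response factor in 0 of the 9 and 0 of the 4, against 1.63%. Motifs were searched on both strands and counted separately where their letters overlap. These are letter matches in short windows of few genes.

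In control cells the set was led by the beta1 subunit and by N-cadherin. On the scale of CPM per kb of the longest protein-coding transcript, which allows genes of different length to be set side by side, Itgb1 had 261 ± 15.7 CPM per kb in non-stretched control cells (mean ± SD, n = 6). Cdh2 followed with 130.2 ± 4.60 CPM per kb, Itgb5 with 71.1 ± 2.14 CPM per kb and Itgav with 35.0 ± 1.89 CPM per kb. None of these 4 overlapped its neighbour in the order. The alpha subunits Itga3, at 28.7 ± 1.05 CPM per kb, and Itga5, at 26.9 ± 1.62 CPM per kb, came next and overlapped each other. Itga1, Cdh24, Itga6 and Itga7 formed a further step, from 10.2 ± 0.399 CPM per kb for Itga1 down to 8.55 ± 0.538 CPM per kb for Itga7, within which neighbours overlapped. Cdh13 stood alone at 6.58 ± 0.714 CPM per kb. In non-stretched knockdown cells the first 4 genes came in the same order, with 214 ± 8.02 CPM per kb for Itgb1, 63.6 ± 1.21 CPM per kb for Cdh2, 43.9 ± 1.41 CPM per kb for Itgb5 and 32.1 ± 1.43 CPM per kb for Itgav. There Itga5, at 24.7 ± 1.27 CPM per kb, stood above Itga3, at 17.3 ± 0.802 CPM per kb, without overlap. Per kb of all merged exons instead, Itgav took rank 6 in non-stretched control cells and rank 5 in non-stretched knockdown cells, and Itgb5 passed Cdh2 in non-stretched knockdown cells. The remaining 20 tested members lay at or below the level of Itga10, 1.98 ± 0.184 CPM per kb in non-stretched control cells, and most neighbours among them overlapped.

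**Figure D1:**
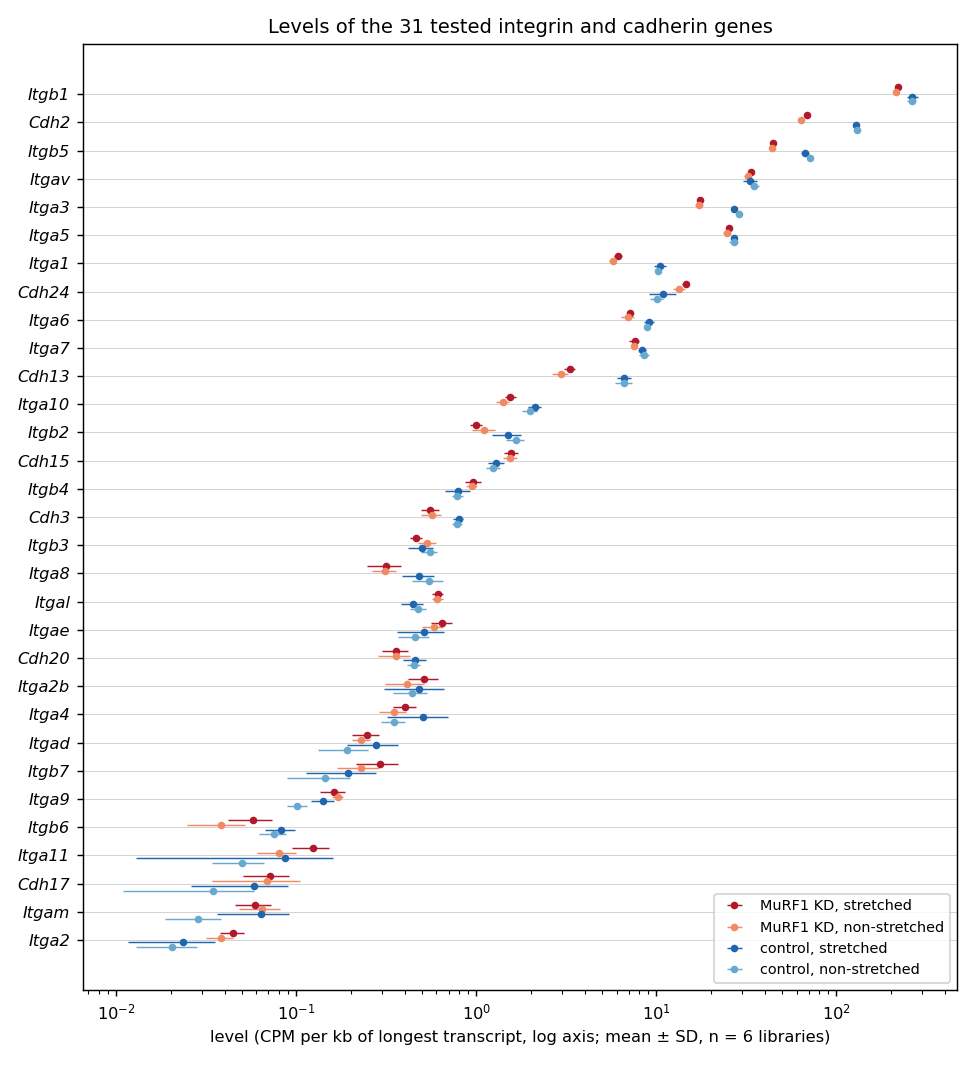
Mean level (CPM per kb of the longest transcript, log axis) of the 31 tested genes in the 4 groups, with bars of 1 SD over 6 libraries. Itgb1 and Cdh2 lead the order, and in most of the upper rows the knockdown points lie left of the control points, with those of Cdh24, and of Itgav in stretched cells, to the right.

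In the knockdown cells, N-cadherin, T-cadherin, the collagen receptor subunit Itga1, the laminin receptor subunit Itga3 and the beta subunit Itgb5 were all lower by between 0.59 and 1.17 on the log2 scale, with no overlap between knockdown and control libraries. The fibronectin receptor subunit Itga5 was lower by far less. Among non-stretched cells, 25 of the 31 tested members passed the test, 9 higher and 16 lower in knockdown cells. The background is wide, since 57.8% of all 14411 tested genes passed in this comparison (28.0% higher and 29.7% lower). Among stretched cells, 21 of the 31 passed, 7 higher and 14 lower, against 52.0% of all genes (25.1% higher and 26.9% lower). Knockdown and control ranges did not overlap for 5 members higher and 11 lower without stretch, against 16.3% and 21.5% of all genes, and for 1 higher and 9 lower with stretch, against 14.7% and 17.3% of all genes. At an unadjusted p under 0.05 by edgeR's test, 26 of the 31 members differed without stretch, against 61.5% of all genes, and 22 with stretch, against 56.7%. The test was edgeR's quasi-likelihood test with Benjamini-Hochberg adjustment over all tested genes, at a threshold of 0.05. RNA was measured in bulk, where fewer cells of a type and less RNA per cell cannot be told apart.

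Without stretched control replicate 5, 11 members rose and 16 fell without stretch (61.4% of all genes then passed) and 8 rose and 13 fell with stretch (55.4%). Within code letter a, 6 members rose and 15 fell without stretch (54.9% of all genes then passed) and 7 rose and 12 fell with stretch (49.6%). Within letter b 5 rose and 12 fell without stretch (38.8% of all genes) and 1 rose and 11 fell with stretch (34.6%). Falls were more frequent among abundant genes, in the members as in all genes. Of the 10 members with an average log2 CPM of 5 or more, 9 fell and 1 rose without stretch, against 40.8% of all genes at that level that fell and 24.5% that rose. Of the 21 lower members, 7 fell and 8 rose, against 20.4% and 31.0% of all genes at that level. The median log2 fold change without stretch was -0.12 over the 31 members and 0.01 over all genes. With stretch it was -0.14 over the members and 0.00 over all genes. The comparisons without and with stretch share no libraries. In both of them 14 of the 31 members fell and 6 rose, against 24.7% and 21.3% of all genes. Of the others, 0 members passed in opposite directions, against 0.0347% of all genes, and 5 passed in neither, against 36.2%.

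**Figure D2:**
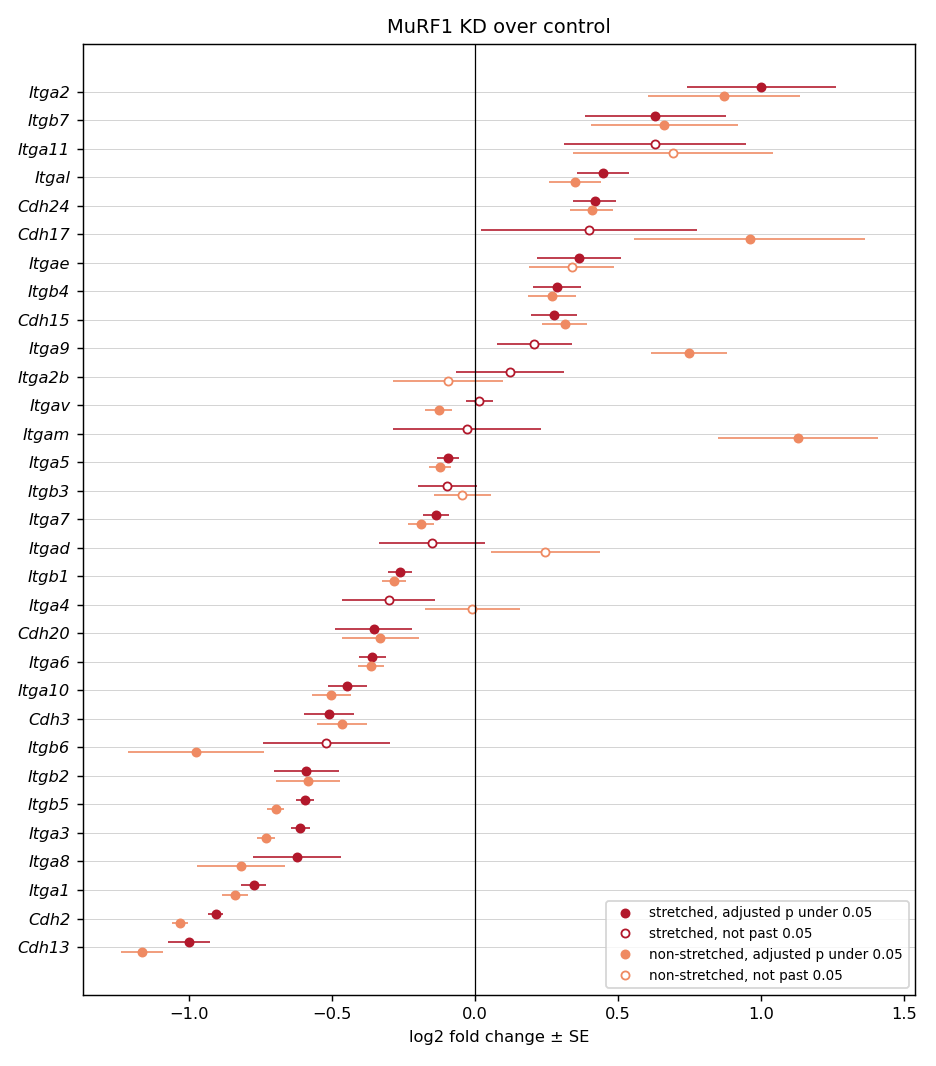
Log2 fold change of MuRF1 KD over control with bars of 1 SE for the 31 tested genes, among stretched and among non-stretched cells, with filled points for an adjusted p under 0.05. The points of the 2 comparisons lie close together for most genes, with Itgam, Itga9, Cdh17 and Itgb6 as visible exceptions among the low ones.

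Cdh2, the cadherin of the intercalated disc, was the most abundant cadherin and fell the most after T-cadherin. Non-stretched libraries had 302, 309 and 317 CPM (lowest, median and highest of 6, the order used for all such values) with the MuRF1 hairpin, against 609, 626 and 664 CPM with the scrambled hairpin. Stretched libraries had 326, 331 and 343 CPM with the MuRF1 hairpin, against 594, 628 and 656 CPM with the scrambled hairpin. Every knockdown library thus lay far below every control library. The log2 fold change was -1.03 without stretch (SE 0.03, edgeR adjusted p = 1.35e-21) and -0.91 with stretch (SE 0.03, edgeR adjusted p = 3.78e-20).

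Cdh13 encodes T-cadherin, which is held by a lipid anchor, has no tail for catenins and binds adiponectin. It had the largest fall among members above an average log2 CPM of 1. In non-stretched cells its levels were 9.67, 11.3 and 12.8 CPM in knockdown libraries, against 22.0, 24.7 and 28.5 CPM in control libraries. In stretched cells they were 11.3, 12.7 and 13.4 CPM in knockdown libraries, against 22.5, 25.0 and 27.3 CPM in control libraries. The groups did not overlap, and the log2 fold changes were -1.17 (SE 0.07, edgeR adjusted p = 1.65e-13) and -1.0 (SE 0.07, edgeR adjusted p = 4.61e-12). The gene lies at chr8:118283733-119324921 on GRCm38.

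Cdh3, which encodes P-cadherin, was low and fell in knockdown cells as well. It had 2.05, 2.61 and 2.78 CPM in non-stretched knockdown libraries, against 3.17, 3.42 and 3.68 CPM in non-stretched control libraries. The stretched libraries had 2.10, 2.47 and 2.83 CPM with knockdown and 3.26, 3.41 and 3.84 CPM in control. These ranges did not overlap either, with log2 fold changes of -0.47 (SE 0.09) and -0.51 (SE 0.09, edgeR adjusted p = 1.94e-05).

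Cdh24, a type II cadherin that binds catenins, moved the other way and was the only member above an average log2 CPM of 5 to rise. Non-stretched libraries had 40.7, 46.9 and 51.3 CPM with knockdown, against 32.1, 34.5 and 39.9 CPM in control. Stretched libraries had 48.3, 50.4 and 54.9 CPM with knockdown, against 34.3, 35.8 and 51.7 CPM in control. The non-stretched groups did not overlap, whereas in the stretched control group replicate 5 alone reached into the knockdown range. Its log2 fold change was 0.41 without stretch (SE 0.08, edgeR adjusted p = 5.56e-05) and 0.42 with stretch (SE 0.08, edgeR adjusted p = 4.62e-05). Cdh15, the M-cadherin known from skeletal muscle precursors, rose by 0.31 without stretch (edgeR adjusted p = 0.00141) and 0.28 with stretch (edgeR adjusted p = 0.00484) on the log2 scale.

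The type II cadherin Cdh20 had a log2 fold change of -0.33 without stretch (edgeR adjusted p = 0.036) and -0.35 with stretch (edgeR adjusted p = 0.0283). Its call without stretch was lost, at edgeR adjusted p from 0.0522 to 0.102, on leaving out any of 8 libraries. These were stretched knockdown replicate 1, non-stretched knockdown replicates 1, 2, 4 and 6, and non-stretched control replicates 1, 4 and 6. With stretch it was lost, at 0.071 to 0.079, without stretched knockdown replicate 1 or 5 or without stretched control replicate 4. Cdh17, the cadherin of liver and intestine, lay between 1 and 18 counts per library and was called higher without stretch, at 0.96 on the log2 scale (edgeR adjusted p = 0.0433), and had 0.40 with stretch (edgeR adjusted p = 0.398). The first call was lost, at edgeR adjusted p from 0.053 to 0.152, without any of non-stretched knockdown replicates 1, 2, 3 and 5 or non-stretched control replicates 2, 4, 5 and 6.

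**Figure D3:**
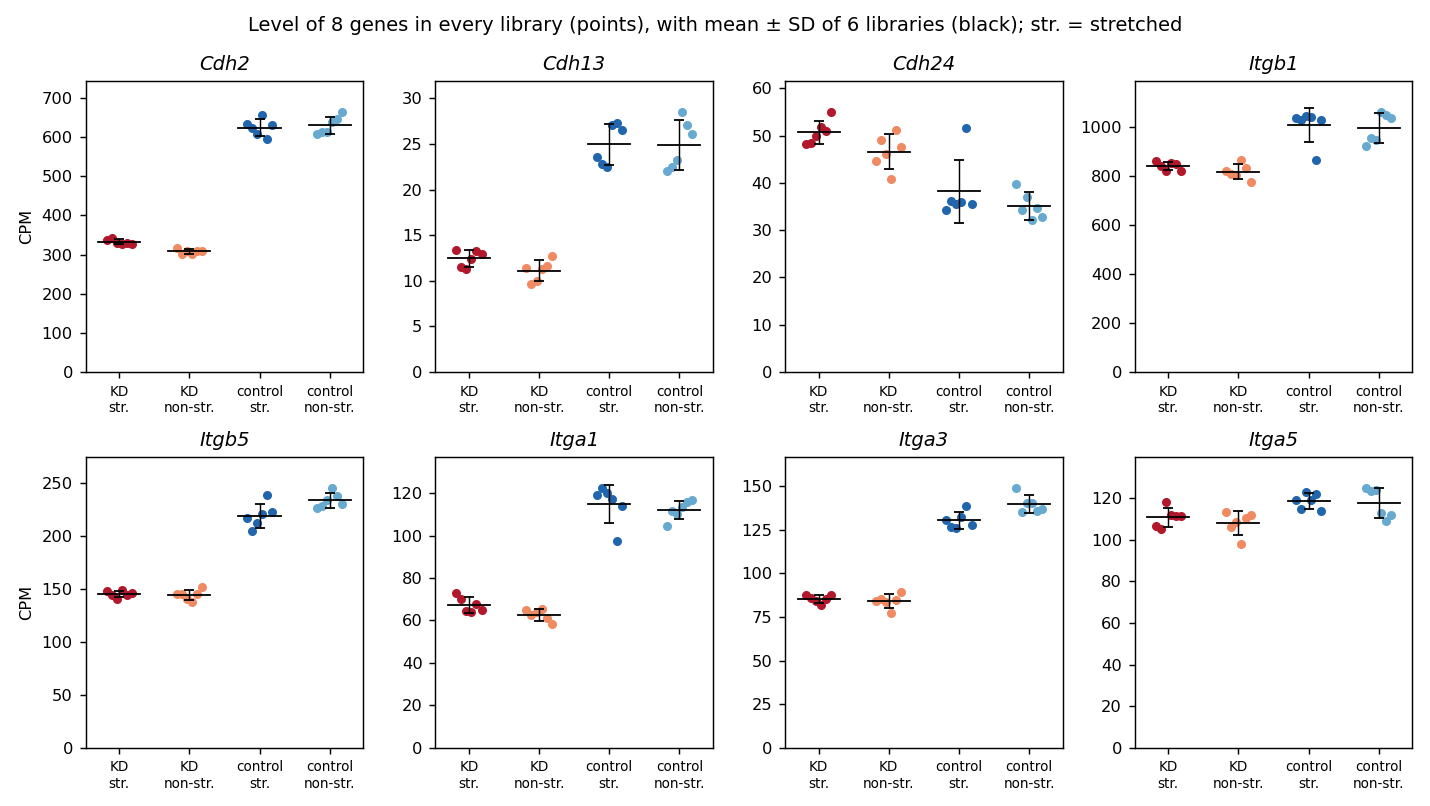
Level in CPM of 8 members in each library (points), with the mean and SD of 6 libraries in black, for knockdown and control cells, stretched (str.) and not. Cdh2, Cdh13, Itgb5, Itga1 and Itga3 separate knockdown from control completely, Cdh24 is higher in knockdown, Itga5 overlaps, and stretched control replicate 5 is the low point of Itgb1 and Itga1 and the high point of Cdh24.

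Among the beta subunits, Itgb1 and Itgb5, the most abundant, were lower in knockdown cells. Itgb1, at chr8:128685654-128733200 on GRCm38, pairs with more alpha subunits than any other beta subunit. It had 775, 815 and 867 CPM in non-stretched knockdown libraries, against 924, 998 and 1061 CPM in non-stretched control libraries. In stretched cells it had 819.7, 846 and 861 CPM with knockdown, against 866, 1033 and 1046 CPM in control. The groups did not overlap, although the lowest stretched control value came within a few CPM of the highest knockdown value and belonged to replicate 5. For Itgb1 the log2 fold change was -0.28 without stretch (SE 0.04, edgeR adjusted p = 1.29e-06) and -0.26 with stretch (SE 0.04, edgeR adjusted p = 5.54e-06).

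Itgb5, at chr16:33829665-33949338, pairs with alpha v in a vitronectin receptor. Non-stretched cells had 138, 145 and 151 CPM with knockdown, against 226, 232 and 245 CPM in control. Stretched cells had 140.1, 145 and 149 CPM with knockdown, against 205, 219 and 238 CPM in control. All 12 knockdown libraries lay below all 12 control libraries, and the log2 fold change was -0.70 (SE 0.03, edgeR adjusted p = 6.86e-17) without and -0.59 (SE 0.03, edgeR adjusted p = 3.19e-15) with stretch.

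Itgb3, another partner of alpha v, known from platelets and vessels, was much lower and did not pass the test in any of the 5 comparisons. It had 2.50, 3.13 and 3.46 CPM in non-stretched knockdown libraries, against 2.56, 3.25 and 3.49 CPM in non-stretched control libraries. Stretched libraries had 2.48, 2.62 and 3.04 CPM with knockdown, against 2.07, 2.98 and 3.39 CPM in control. The ranges overlapped, with log2 fold changes of -0.04 (95% interval -0.25 to 0.17) and -0.10 (-0.31 to 0.12). Itgb6, an epithelial partner of alpha v that releases active TGF-beta, had between 6 and 22 counts per library. It was called lower without stretch, at -0.98 on the log2 scale (edgeR adjusted p = 0.000922), and had -0.52 with stretch (edgeR adjusted p = 0.051), where leaving out stretched knockdown replicate 4 or 5, stretched control replicate 2 or non-stretched knockdown replicate 3 brought it to 0.0252 to 0.0451. Itgb4, the partner of alpha 6 in hemidesmosomes of epithelia, rose by 0.27 (edgeR adjusted p = 0.00716) and 0.29 (edgeR adjusted p = 0.00512). A non-coding RNA on the opposite strand shares exon bases with Itgb4, and whether the authors' counting used the strand is not given.

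All 3 laminin-binding alpha subunits fell in knockdown cells without and with stretch, where 29.7% and 26.9% of all genes fell. Itga3, at chr11:95044474-95076801, had 77.2, 84.3 and 89.3 CPM in non-stretched knockdown libraries, against 135, 139 and 149 CPM in non-stretched control libraries. Stretched libraries had 81.8, 85.5 and 87.7 CPM with knockdown, against 126, 129 and 139 CPM in control. The groups were far apart, with a log2 fold change of -0.73 without stretch (SE 0.03, edgeR adjusted p = 4.50e-17) and -0.61 with stretch (SE 0.03, edgeR adjusted p = 3.21e-15).

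Itga6, the alpha subunit that pairs with beta1 or beta4, had 26.1, 30.9 and 32.2 CPM in non-stretched knockdown cells, against 36.6, 38.5 and 40.4 CPM in non-stretched control cells. With stretch the values were 29.1, 30.6 and 32.8 CPM in knockdown and 36.3, 39.3 and 43.7 CPM in control. The ranges did not overlap, and the log2 fold change was -0.36 without and -0.36 with stretch (SE 0.05 in each, edgeR adjusted p = 1.77e-07 and 2.71e-07).

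Itga7, the laminin receptor subunit of skeletal and heart muscle, had the smallest fold change of the 3. Non-stretched libraries had 28.0, 30.6 and 31.3 CPM with knockdown, against 32.9, 33.7 and 38.7 CPM in control. Stretched libraries had 28.0, 30.5 and 33.0 CPM with knockdown, against 31.6, 33.1 and 36.7 CPM in control. The non-stretched groups did not overlap and the stretched groups did. Its annotated exons share 9 bases with those of Mettl7b. The log2 fold change was -0.19 (SE 0.05, edgeR adjusted p = 0.000837) without and -0.14 (SE 0.05, edgeR adjusted p = 0.0124) with stretch.

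Of the 4 collagen-binding alpha subunits, Itga1 and Itga10 fell, Itga2 rose and Itga11 did not pass. Itga1, at chr13:114953096-115101964, had 58.1, 63.3 and 65.3 CPM in non-stretched knockdown libraries, against 105, 113 and 117 CPM in non-stretched control libraries. In stretched cells it had 63.8, 66.2 and 73.1 CPM with knockdown, against 97.6, 118 and 122 CPM in control. No library of a knockdown group reached the control range. The log2 fold change was -0.84 without stretch (SE 0.04, edgeR adjusted p = 3.59e-15) and -0.77 with stretch (SE 0.04, edgeR adjusted p = 2.73e-14). A predicted coding gene on the same strand shares exon bases with Itga1, another does so with Itga10, and how the authors' counting divided such reads is not given.

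Itga10, known as a collagen receptor of cartilage, had 6.44, 6.96 and 8.07 CPM in non-stretched knockdown cells, against 8.43, 10.4 and 10.8 CPM in non-stretched control cells. Stretched cells had 7.13, 7.85 and 8.49 CPM with knockdown and 9.97, 10.2 and 12.1 CPM in control. The groups did not overlap, and the log2 fold changes were -0.50 (SE 0.07) and -0.45 (SE 0.07, edgeR adjusted p = 3.03e-06). Itga2, the collagen receptor subunit of platelets and epithelia, had 3 to 17 counts per library. It was called higher by 0.87 (edgeR adjusted p = 0.00654) and 1.00 (edgeR adjusted p = 0.00201), and the first of these calls was lost with the scaling factors per gene and library read from the authors' normalized table (0.03, edgeR adjusted p = 0.956). Itga11, a collagen receptor of fibroblasts, had log2 fold changes of 0.69 (95% interval -0.04 to 1.42) and 0.63 (-0.03 to 1.29). Without stretched control replicate 5, in which Itga11 stood at 1.14 CPM, it was called higher in both, at 0.69 (edgeR adjusted p = 0.0237) without and 1.08 (edgeR adjusted p = 0.000634) with stretch.

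Of the 4 RGD-binding alpha subunits, the abundant Itga5 and Itgav differed little between knockdown and control, and Itga8 fell. Itga5, the alpha subunit of the classical fibronectin receptor at chr15:103344286-103366763, had 98.0, 109 and 113 CPM in non-stretched knockdown libraries, against 109, 118 and 125 CPM in non-stretched control libraries. Stretched libraries had 105, 112 and 118 CPM with knockdown, against 114, 119 and 123 CPM in control. The groups overlapped, and the log2 fold change was -0.12 without stretch (SE 0.04, edgeR adjusted p = 0.00783) and -0.10 with stretch (SE 0.04, edgeR adjusted p = 0.0394). The call without stretch was lost without non-stretched knockdown replicate 4 (-0.07, edgeR adjusted p = 0.114). The call with stretch was lost, at edgeR adjusted p from 0.0525 to 0.138, without any of stretched knockdown replicates 1, 2, 5 and 6 or stretched control replicates 1, 3, 4 and 5, and with DESeq2 (0.0755).

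Itgav encodes alpha v, which pairs with beta3, beta5 and beta6 among others and also binds latent TGF-beta. It had 212, 229 and 237 CPM in non-stretched knockdown libraries, against 234, 246 and 272 CPM in non-stretched control libraries. With stretch it had 227, 238 and 247 CPM with knockdown, against 191, 243 and 247 CPM in control. The ranges overlapped in both. Its log2 fold change was -0.13 without stretch (SE 0.05, edgeR adjusted p = 0.0231) and 0.01 with stretch (SE 0.05, edgeR adjusted p = 0.825). The call without stretch was lost, at edgeR adjusted p from 0.0523 to 0.0782, without stretched knockdown replicate 1, non-stretched knockdown replicate 2 or 6, or non-stretched control replicate 6. A predicted gene shares exon bases with Itgav.

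Itga8, a receptor subunit for nephronectin that marks contractile cells, was low and fell. Non-stretched libraries had 1.49, 1.77 and 2.32 CPM with knockdown, against 2.21, 3.07 and 3.95 CPM in control. Stretched libraries had 1.36, 1.94 and 2.35 CPM with knockdown, against 1.96, 2.81 and 3.67 CPM in control. The ranges met at their edges without stretch, and with stretch the lowest control value lay near the knockdown median. The log2 fold changes were -0.82 (SE 0.15, edgeR adjusted p = 4.59e-05) and -0.62 (SE 0.15, edgeR adjusted p = 0.0012). An antisense transcript shares exon bases with Itga8. Itga2b, the fibrinogen receptor subunit of platelets, did not pass, with -0.09 (95% interval -0.50 to 0.31) and 0.12 (-0.27 to 0.52).

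The integrins named for leukocytes were all low, and 6 of these 7 genes were tested. Of these 6, 3 rose and 1 fell in each knockdown comparison, so they did not share a direction. That was 66.7% called in each, against 57.8% of all genes without and 52.0% with stretch. Itgb2, the common beta subunit of the leukocyte integrins, fell. It had 2.40, 3.42 and 3.63 CPM in non-stretched knockdown cells, against 4.00, 4.95 and 5.76 CPM in non-stretched control cells. Stretched cells had 2.61, 2.96 and 3.34 CPM with knockdown, against 3.06, 4.62 and 5.52 CPM in control. Its non-stretched groups did not overlap, and the log2 fold change was -0.59 (SE 0.11, edgeR adjusted p = 6.09e-05) without and -0.59 (SE 0.11, edgeR adjusted p = 8.34e-05) with stretch.

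Itgal, whose product pairs with beta2 in the receptor LFA-1, rose instead. Knockdown libraries had 2.95, 3.13 and 3.59 CPM without stretch, against 2.12, 2.54 and 2.72 CPM in control libraries. With stretch they had 2.89, 3.19 and 3.47 CPM, against 1.96, 2.17 and 2.78 CPM in control libraries. It was the only member whose knockdown range lay above the control range in both comparisons. The log2 fold changes were 0.35 (SE 0.09, edgeR adjusted p = 0.00152) and 0.45 (SE 0.09, edgeR adjusted p = 0.000146).

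Itgb7, the partner of alpha 4 and alpha E, was called higher by 0.66 (edgeR adjusted p = 0.0297) and 0.63 (edgeR adjusted p = 0.034). Its calls were fragile. The first was lost, at edgeR adjusted p from 0.0549 to 0.0766, without any of non-stretched knockdown replicates 1, 3 and 5 or non-stretched control replicates 2, 4 and 5. The second was lost, at 0.0502 to 0.110, without stretched knockdown replicate 1 or 3 or any stretched control replicate other than 5. Itgae, whose product binds E-cadherin, had 0.34 without stretch (edgeR adjusted p = 0.053) and was called higher with stretch (0.36, edgeR adjusted p = 0.0409). That call was lost, at 0.0527 to 0.101, without any of stretched knockdown replicates 1, 3, 4 and 5 or stretched control replicates 2, 3, 4 and 6. Without stretch it passed, at 0.0196 to 0.0484, on leaving out stretched knockdown replicate 1 or 2, stretched control replicate 5, non-stretched knockdown replicate 2 or 5, or non-stretched control replicate 1 or 3.

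Itgam, known as CD11b of myeloid cells, was called higher without stretch (1.13, edgeR adjusted p = 0.00113) on 3 to 17 counts per library, and stood at -0.03 with stretch. Itgam shares exon bases with a predicted coding gene on the same strand, and it neighbours its close relatives Itgax and Itgad on chromosome 7, between which reads could be divided. Itgad, which shares exon bases with 4 other genes, had log2 fold changes of 0.25 and -0.15 and did not pass. Itga9, which binds tenascin and osteopontin, was called higher without stretch (0.75, edgeR adjusted p = 2.43e-05) and stood at 0.21 with stretch. Its relative Itga4, which binds Vcam1 and fibronectin and overlaps the gene Cerkl on the opposite strand, did not pass, with -0.01 (95% interval -0.36 to 0.34) and -0.30 (-0.64 to 0.03).

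The make-up of the alpha integrin messages differed between knockdown and control. Summed as CPM per kb within each library, RGD-binding alpha subunits made up a median of 58.5% (57.4% to 59.5%) of the alpha level in non-stretched knockdown cells, with the range of 6 libraries in parentheses, against 51.0% (50.1% to 52.2%) in non-stretched control cells. In stretched cells the shares were 58.3% (57.7% to 59.6%) with knockdown and 51.3% (48.1% to 51.9%) in control. Laminin-binding subunits held 32.2% (30.5% to 33.7%) in non-stretched knockdown cells, against 37.5% (36.5% to 39.0%) in non-stretched control cells. With stretch they held 31.5% (31.0% to 32.8%) in knockdown, against 36.3% (35.8% to 39.6%) in control. Collagen-binding subunits held 7.47% (6.75% to 7.84%) in non-stretched knockdown cells, against 10.0% (9.33% to 10.6%) in non-stretched control cells. With stretch they held 7.71% (7.33% to 8.13%) in knockdown, against 10.7% (9.94% to 11.0%) in control. The ranges of knockdown and control did not overlap in any of these comparisons.

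The larger RGD share did not come with a higher RGD level, which summed to a median of 57.7 CPM per kb in non-stretched knockdown cells, against 62.9 CPM per kb in non-stretched control cells. Laminin-binding subunits summed to 32.0 CPM per kb in non-stretched knockdown cells, against 45.9 CPM per kb in non-stretched control cells. Among cadherins, type I members, mostly Cdh2, held 79.6% (78.2% to 80.9%) of the summed level in non-stretched knockdown cells, against 88.5% (87.7% to 89.2%) in non-stretched control cells. Type II members, mostly Cdh24, held 16.7% (15.2% to 18.1%) in non-stretched knockdown cells, against 6.95% (6.36% to 8.19%) in non-stretched control cells. In stretched cells the type II share was 16.7% (15.8% to 18.2%) with knockdown and 7.18% (6.94% to 10.4%) in control, where the highest control value belonged to replicate 5. These shares are descriptions and depend on the transcript length used for each gene.

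**Figure D4:**
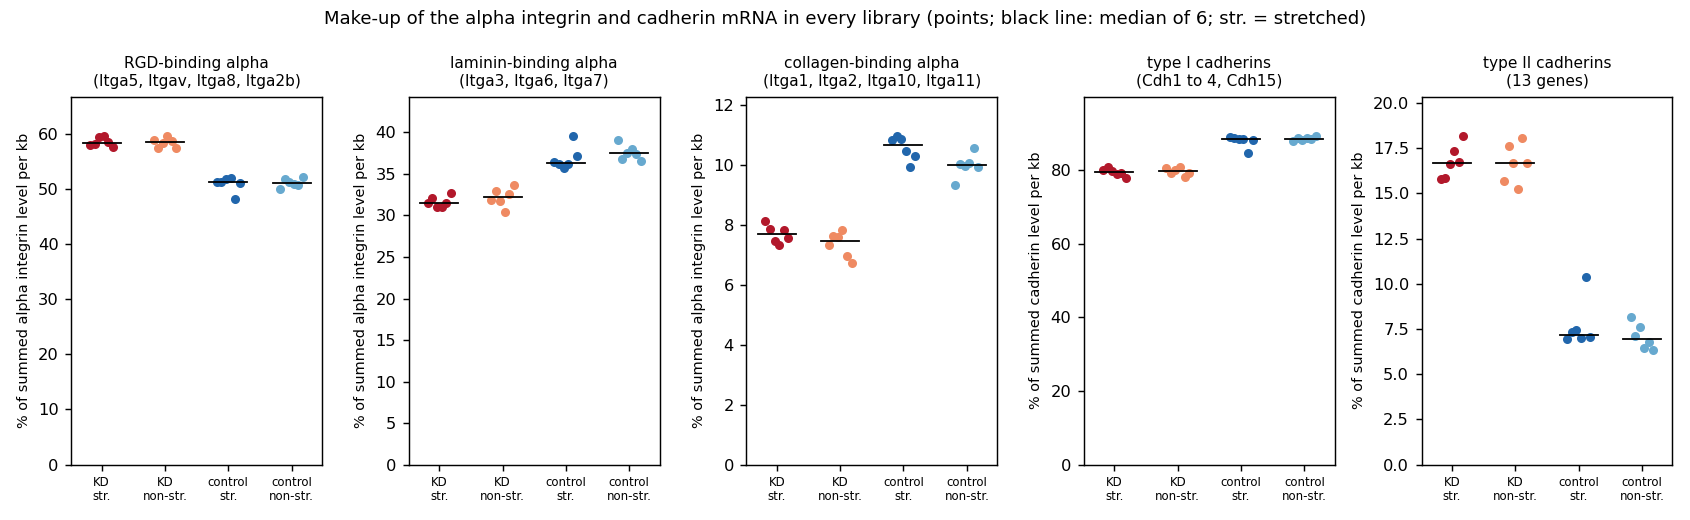
Share of the summed alpha integrin level (3 panels) or cadherin level (2 panels), each in CPM per kb, held by a class in every library, with the median of 6 libraries as a black line. The RGD and type II shares are higher and the laminin, collagen and type I shares lower in all knockdown libraries than in all control libraries.

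Genes that work beside these receptors were counted from lists that were likewise chosen with earlier results known. The lists share genes, so their counts are not independent. Vcl, for example, is among the adaptors, the catenins and partners, and the targets of serum response factor and YAP. Ctgf is a matrix ligand and such a target, and Tgfb1 is among the matrix ligands and the TGF-beta genes. Of 38 tested focal adhesion and integrin adaptors, 27 fell and 3 rose in knockdown cells without stretch, and 25 fell and 3 rose with stretch, against the shares of all genes given above. Their median log2 fold change was -0.23 without and -0.24 with stretch, against 0.01 and 0.00 over all genes. Tns1, which encodes tensin, a link from the integrin tail to actin, had 261 ± 17.1 CPM in non-stretched knockdown cells, against 538 ± 10.1 CPM in non-stretched control cells (mean ± SD, n = 6 each). Its log2 fold change was -1.05 without stretch (edgeR adjusted p = 1.15e-16) and -0.98 with stretch (edgeR adjusted p = 8.15e-16). Actn1, which encodes alpha-actinin 1, had -0.55 and -0.44, the actin regulator Vasp had -0.58 and -0.53, and the docking protein Nedd9 had -0.74 and -0.68, all past the threshold.

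Of 17 tested catenins and junction partners, 12 fell and 2 rose without stretch, and 11 fell and 3 rose with stretch, with medians of -0.20 and -0.16. That was 82.4% called in each, against 57.8% of all genes without and 52.0% with stretch. Ctnna1, alpha-catenin, which couples the cadherin complex to actin, had 490.3 ± 11.0 CPM in non-stretched knockdown cells, against 697 ± 21.4 CPM in non-stretched control cells. Its log2 fold change was -0.51 (edgeR adjusted p = 3.27e-15) and -0.44 with stretch. Jup, plakoglobin, had -0.66 and -0.56, Ctnna3, the heart alpha-T-catenin, had -0.82 and -0.69, and the actin-binding gene Ablim1 had -1.01 and -0.88. The fall of the N-cadherin message thus stood beside falls of most tested messages of this list, which holds nectins and other junction genes as well as catenins.

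Of 32 tested matrix ligands, 20 fell and 5 rose without stretch, and 19 fell and 6 rose with stretch, with medians of -0.39 and -0.28. That was 78.1% called in each, against 57.8% of all genes without and 52.0% with stretch. Col1a1, a chain of type I collagen, had 54.9 ± 4.05 CPM in non-stretched knockdown cells, against 145 ± 2.76 CPM in non-stretched control cells, with a log2 fold change of -1.40 (edgeR adjusted p = 2.18e-20) and -1.12 with stretch. Col3a1 had -1.71 and -1.55, and thrombospondin 2 (Thbs2) had -0.88 and -0.73. Col1a2 had -2.31 without stretch at a mean level of 0.0628 ± 0.0513 CPM in knockdown and 0.316 ± 0.0749 CPM in control. Lama2, a laminin chain of muscle, had -1.35 with stretch.

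Among 15 tested genes of receptor processing and turnover, 6 fell and 3 rose without stretch, and 5 fell and 2 rose with stretch, with medians of -0.08 and -0.07. The shares called, 60.0% and 46.7%, lay near the 57.8% and 52.0% of all genes. Furin, the protease that cleaves cadherin and several alpha integrin precursors, had 189 ± 13.0 CPM in non-stretched knockdown cells, against 309 ± 5.63 CPM in non-stretched control cells. Its log2 fold change was -0.71 (edgeR adjusted p = 7.51e-15) and -0.59 with stretch. Of 8 tested genes of TGF-beta storage and activation, 3 fell and 2 rose in each comparison (medians 0.13 and 0.13), with Ltbp3 at -0.47 and Tgfb3 at 0.43 without stretch. That was 62.5% called in each, against the same shares of all genes. Of 18 tested targets of serum response factor and YAP, 11 fell and 4 rose in each (83.3% called), with medians of -0.28 and -0.29. Myl9 had -1.04 without stretch and Cnn2 -0.70 and -0.62, whereas Amotl2 had 1.16 and 1.24 and Ankrd1 had 1.08 without stretch.

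Markers of cell types also moved with the knockdown, beside the 57.8% of all genes that passed without stretch and 52.0% with stretch. The 16 atrial cardiomyocyte markers, 15 of them tested, summed to 2298 to 2612 CPM in knockdown libraries, against 4005 to 4691 CPM in control libraries, with 13 lower and 1 higher in each comparison. Of the genes in this list, the atrial light chain Myl7 averaged 70.0 CPM in non-stretched knockdown cells, against 224 CPM in non-stretched control cells, and cardiac troponin T, Tnnt2, averaged 513 CPM against 1250 CPM. The marker that rose was Nkx2-5, by 0.25 without and 0.24 with stretch on the log2 scale. The natriuretic peptide gene Nppa was near absent at 0.396 to 0.558 CPM in the group means, and the sarcolipin gene Sln was under 0.1 CPM in all groups but stretched control, where it averaged 0.104 CPM. The 10 fibroblast markers, 7 of them tested, summed to 521 to 588 CPM in knockdown libraries, against 819 to 861 CPM in control libraries, with 6 lower in each and Lum, Thy1 and Tcf21 under 0.1 CPM. Single genes made up much of such sums. In non-stretched knockdown and control cells, Ddr2 averaged 457 and 594 CPM among fibroblast markers. There Atp2a2 averaged 1283 and 1879 CPM among atrial markers, and Acta2 1523 and 2280 CPM among smooth muscle markers. The 8 smooth muscle markers, of which 6 fell in each comparison and 1, Myh11, rose with stretch (0.59, edgeR adjusted p = 0.0109), summed to 1876 to 2100.1 CPM in knockdown libraries, against 2720 to 3093 CPM in control libraries. The 10 endothelial markers, of which 5 were tested and 2 fell, summed to 23.9 to 27.4 CPM in knockdown libraries, against 33.0 to 37.7 CPM in control libraries, with Tie1, Cldn5, Emcn and Vwf under 0.1 CPM. The 2 that fell were 40.0% of those tested, below the share of all genes in either comparison.

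The 10 leukocyte markers in the table, of which 3 were tested and 2 rose, summed to 5.79 to 7.87 CPM in knockdown libraries, against 4.18 to 6.42 CPM in control libraries. Adgre1, Cd14, Cd3e and Laptm5, which mark macrophages, T cells and leukocytes in general, were under 0.1 CPM in every group mean, beside the levels of the leukocyte integrins given above. The markers that rose were Coro1a, at 2.43 to 3.96 CPM in the group means, and Cd68, at 1.39 to 2.90 CPM. On the log2 scale Coro1a had 0.60 without and 0.61 with stretch, and Cd68 had 0.48 and 0.40. Csf1r was tested and passed in neither comparison. The 8 epithelial markers, of which 3 were tested and 2 rose, summed to 37.5 to 41.9 CPM in knockdown libraries, against 30.6 to 40.0 CPM in control libraries, with Krt5, Krt14, Krt19, Cldn4 and Ocln under 0.1 CPM. The 8 neural markers, of which 6 were tested and 2 fell in each comparison, summed to 97.6 to 110.2 CPM in knockdown libraries, against 131 to 146 CPM in control libraries. With stretch 2 further ones rose, Tubb3 by 0.75 (edgeR adjusted p = 0.0112) and Syt1 by 0.19 (edgeR adjusted p = 0.0356) on the log2 scale. The part of these differences in the integrin and cadherin values was not tested.

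After stretch for 60 min, few members passed the test. In knockdown cells 1 of the 31 (3.23%) passed, higher in stretched cells, against 8.93% of all genes (5.32% higher and 3.61% lower). In control cells 2 (6.45%) passed, both higher, a share near the 5.95% of all genes (2.55% higher and 3.39% lower). Within code letter a, 1 rose in knockdown cells (5.78% of all genes then passed) and 2 rose and 2 fell in control cells (23.8%). Within letter b, 0 of the 31 passed by edgeR in knockdown cells (1.05% of all genes) and 0 in control cells (0.221%), with 4 and 5 at an unadjusted p under 0.05. In all libraries no member fell by edgeR's test, where 4 members in knockdown cells and 6 in control cells had an unadjusted p under 0.05 in either direction, against 22.3% and 21.5% of all genes. DESeq2 and limma-voom also called 0 members lower in either stretch comparison. The median log2 fold change over the members was 0.04 in control cells and 0.04 in knockdown cells, against -0.01 and -0.01 over all genes.

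Cdh2 was the member that passed in knockdown cells. The 6 stretched knockdown libraries, at 326, 331 and 343 CPM (lowest, median and highest), lay above the 6 non-stretched ones, at 302, 309 and 317 CPM. The log2 fold change was 0.11 (SE 0.03, edgeR adjusted p = 0.00944), a fold of 1.08. Ranges of stretched and non-stretched knockdown cells were apart for 5.43% of all genes (3.50% higher and 1.93% lower). The call was lost within code letter b (0.10, edgeR adjusted p = 0.352) and not within letter a (0.12, edgeR adjusted p = 0.00669). In control cells the stretched libraries, at 594, 628 and 656 CPM, overlapped the non-stretched ones, at 609, 626 and 664 CPM, with -0.01 (SE 0.03, 95% interval -0.07 to 0.04). The difference between the responses was 0.12 (SE 0.04, edgeR adjusted p = 0.23).

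The members that passed in control cells were both low. Itga9 had 0.815, 0.984 and 1.16 CPM in stretched control libraries, against 0.554, 0.746 and 0.793 CPM in non-stretched control libraries. These ranges did not overlap, as was so for 3.19% of all genes in control cells (1.16% higher and 2.03% lower), with a log2 fold change of 0.47 (SE 0.14, edgeR adjusted p = 0.0398), against -0.07 (SE 0.13) in knockdown cells. Itgam had 0.194, 0.252 and 0.531 CPM in stretched control libraries, against 0.0820, 0.126 and 0.200 CPM in non-stretched control libraries, and these ranges met at the edge. Its log2 fold change was 1.03 (SE 0.29, edgeR adjusted p = 0.0305), against -0.12 (SE 0.25) in knockdown cells, and it rests on 3 to 14 counts per library. Of the 3 tested leukocyte markers, Cd68, a lysosomal protein of macrophages, rose with stretch by 0.58 in knockdown cells (edgeR adjusted p = 0.0034) and 0.66 in control cells (edgeR adjusted p = 0.00349). Among the other marker lists, 5 of 15 tested atrial markers (33.3%) and 2 of 8 smooth muscle markers (25.0%) rose in knockdown cells. There 1 of 6 tested neural markers (16.7%) rose too, where 8.93% of all genes passed. In control cells 1 of 15 atrial (6.67%) and 1 of 8 smooth muscle markers (12.5%) rose. There 1 of 7 tested fibroblast markers (14.3%) fell, where 5.95% of all genes passed. The part of these in the stretch values was not tested.

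Neither call was firm. That of Itga9 was lost, at edgeR adjusted p from 0.0605 to 0.104, without any of stretched control replicates 1, 3 and 6 or non-stretched control replicates 3, 4 and 5, with DESeq2 (0.0604), with no filter on low counts (0.0594), in a fit of the 12 control libraries alone (0.106), and within letter a (0.265) or b (0.388). That of Itgam was lost, at 0.0525 to 0.068, without stretched control replicate 3 or 6 or any of non-stretched control replicates 2, 3, 4 and 6, and within letter a (0.234) or b (0.322). Without stretched control replicate 5 the counts became 2 higher and 2 lower in control cells, where 14.0% of all genes then passed, and 2 higher and 0 lower in knockdown cells, where Itga1 joined Cdh2 (0.10, edgeR adjusted p = 0.0453). The members then called lower in control cells were Itga3 (-0.12, edgeR adjusted p = 0.00994) and Itgb5 (-0.12, edgeR adjusted p = 0.00496). Other single libraries added a call in control cells. Itga4 passed without stretched control replicate 4 or 6 (0.58 in each, edgeR adjusted p = 0.0404 and 0.041), Itgad without non-stretched control replicate 1 (0.67, edgeR adjusted p = 0.0326) and Itga3 without non-stretched knockdown replicate 6 (-0.10, edgeR adjusted p = 0.0458). In all 24 libraries Itga3 and Itgb5 had -0.10 (edgeR adjusted p = 0.0593) and -0.09 (edgeR adjusted p = 0.073).

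In all 24 libraries, Itga5, Itgb1 and Itgav, subunits of receptors for the fibronectin coating, showed no change past the threshold with stretch. The same held for the laminin receptor subunit Itga7. Within code letter a alone, Itgb1 passed in control cells. For Itga5 the log2 fold change was 0.04 in knockdown cells (95% interval -0.04 to 0.12) and 0.01 in control cells (-0.07 to 0.09). For Itgb1 it was 0.04 in knockdown cells (-0.05 to 0.13) and 0.02 in control cells (-0.07 to 0.10). For Itgav it was 0.06 in knockdown cells (-0.04 to 0.16) and -0.08 in control cells (-0.18 to 0.02). For Itga7 it was 0.01 in knockdown cells (-0.08 to 0.10) and -0.04 in control cells (-0.13 to 0.05).

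**Figure D5:**
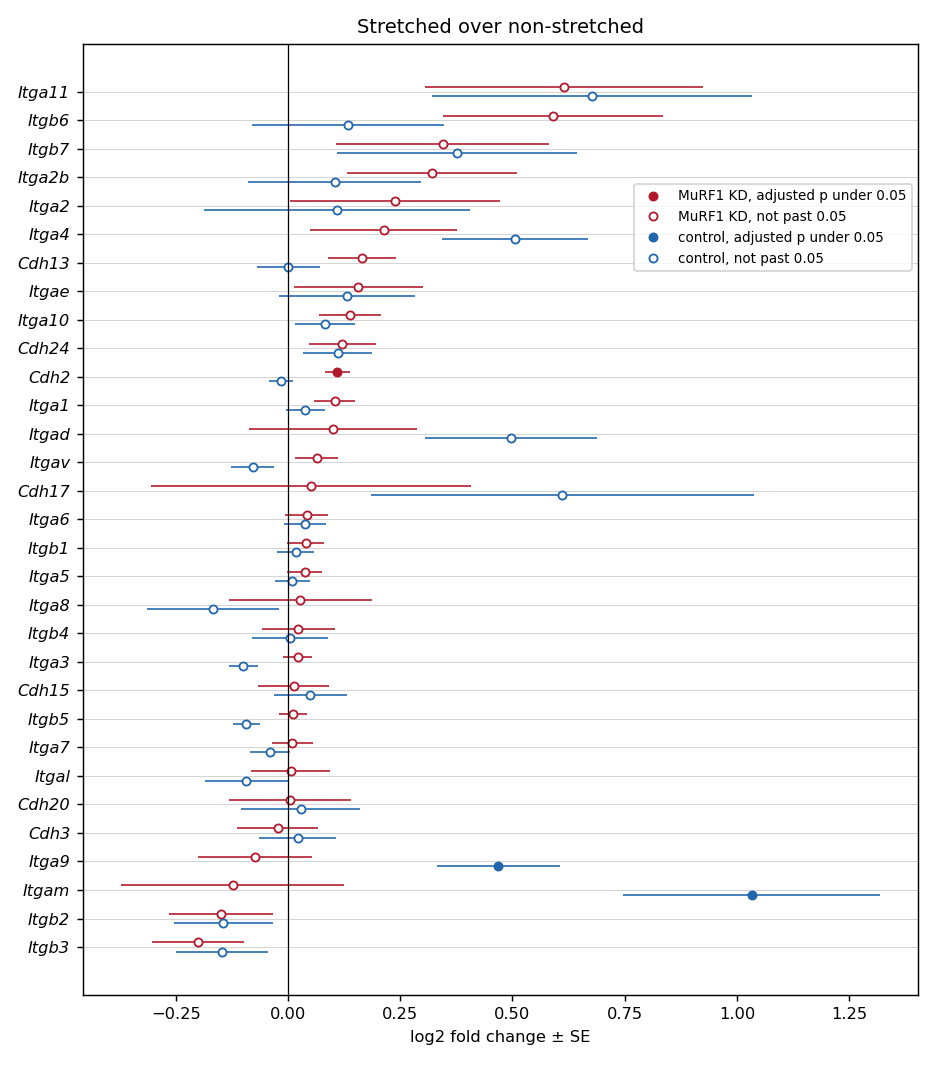
Log2 fold change of stretched over non-stretched cells with bars of 1 SE for the 31 tested genes, in MuRF1 KD and in control cells, with filled points for an adjusted p under 0.05. Filled points are Cdh2 in knockdown cells and Itga9 and Itgam in control cells, and the wide bars belong to genes with few counts.

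The same lists of partners were counted after stretch, against 8.93% of all genes that passed in knockdown cells and 5.95% in control cells. Of 38 adaptors, 6 rose and 0 fell in knockdown cells (15.8%), and 2 rose and 0 fell in control cells (5.26%), where the share lay near that of all genes. Vcl, vinculin, which binds both talin and alpha-catenin, had 0.16 in knockdown cells (edgeR adjusted p = 0.000637) and 0.12 in control cells (edgeR adjusted p = 0.0125). Tgfb1i1, the focal adhesion protein Hic-5, had 0.27 in knockdown cells and 0.24 in control cells (edgeR adjusted p = 0.000327 and 0.00134). Bcar1, the stretch-sensitive docking protein p130Cas, had 0.14 in knockdown cells (edgeR adjusted p = 0.0124), as did the low Parvg with 0.75 (edgeR adjusted p = 0.025).

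Of 17 catenins and partners, 4 rose and 0 fell in knockdown cells (23.5%), and 3 rose and 0 fell in control cells (17.6%), with Vcl counted again in both. Lima1, an actin binder of junctions, had 0.24 in knockdown cells (edgeR adjusted p = 1.65e-06) and 0.24 in control cells (edgeR adjusted p = 2.93e-06). Ctnnd1, the p120 catenin that keeps cadherins at the surface, had 0.16 and 0.09 (edgeR adjusted p = 5.94e-05 and 0.0245). Of 18 targets of serum response factor and YAP, 8 rose in knockdown cells (44.4%) and 5 in control cells (27.8%), with 0 lower in either. Srf itself had 0.37 and 0.37, Amotl2 had 0.27 and 0.19, and Ankrd1 had 0.38 and 0.62, all past the threshold.

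Of 32 matrix ligands, 3 rose and 0 fell in knockdown cells (9.38%), and 2 rose and 5 fell in control cells (21.9%). Thbs1, thrombospondin 1, had 74.3 ± 5.44 CPM in knockdown cells after stretch, against 35.2 ± 3.50 CPM in those at rest, a log2 fold change of 1.08 (edgeR adjusted p = 4.81e-08). In control cells it had 83.2 ± 6.83 CPM after stretch, against 53.8 ± 9.36 CPM at rest, a log2 fold change of 0.63 (edgeR adjusted p = 0.000112). Ctgf had 0.39 in knockdown cells and 0.40 in control cells, and Thbs2 had 0.18 in knockdown cells. Fn1, the gene of fibronectin, had -0.15 in control cells on the log2 scale (edgeR adjusted p = 0.00922), and Col1a1 had -0.17. Of 15 processing genes, 1 rose in knockdown cells, Arf6 with 0.08, and 0 passed in control cells. Of 8 genes of TGF-beta storage and activation, 1 fell in control cells, Tgfb1 with -0.17, and 0 passed in knockdown cells. Without stretched control replicate 5, a setting added for these lists after seeing the data, 14.0% of all genes passed in control cells, and 4 adaptors rose and 3 fell there, 11 targets of serum response factor and YAP rose and 9 matrix ligands fell.

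Whether MuRF1 knockdown altered the stretch response was asked of each gene by the interaction, the response in knockdown cells minus that in control cells. None of the 31 members passed by edgeR's test (0 of 31, against 0.0208% of all genes), and 6 had an unadjusted p under 0.05, against 9.40% of all genes. These were Cdh2, Itgam, Itga9, Itga3, Itgb5 and Itgav. DESeq2 called 1 member, Cdh2, against 0.770% of all genes, and limma-voom called 0. The interaction was 0.12 for Itga3 (95% interval 0.03 to 0.22, edgeR adjusted p = 0.371), 0.10 for Itgb5 (0.01 to 0.19) and 0.14 for Itgav (0.00 to 0.28). For the low genes it was -1.16 for Itgam (-1.95 to -0.36) and -0.54 for Itga9 (-0.93 to -0.15). Of the pathway lists, 0 genes passed the interaction in any of the 6 in all 24 libraries. At an unadjusted p under 0.05 by edgeR's test, 11 of 32 matrix ligands differed, against 9.40% of all genes. Their median interaction was 0.13, against 0.01 over all genes. The same held for 3 of 38 adaptors, 3 of 17 catenins and partners and 4 of 18 targets of serum response factor and YAP. It also held for 1 of 15 processing genes and 2 of 8 TGF-beta genes. Without stretched control replicate 5, 4 of 32 matrix ligands and 1 of 38 adaptors passed it, all higher, against 0.753% of all genes. In that setting 0 genes of the remaining lists and 0 members passed it.

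The 18 members that were not tested were read little. Of these, 17 had at most 9 counts in any library and Cdh4, the R-cadherin, reached 12. They include Cdh1, the E-cadherin of epithelia, with at most 9 counts, Cdh5, the cadherin of endothelium, with at most 5, Cdh11, a cadherin of fibroblasts, with at most 4, and the leukocyte subunit Itgax with at most 7. Cdh6 and Cdh19 had at most 9 counts, Cdh16, Cdh22 and Cdh23 at most 8, and Cdh26 at most 7. Cdh8 and Cdh12 had at most 3 counts, Cdh7 and Cdh10 at most 2, and Cdh9, Cdh18 and Itgb8, a further partner of alpha v, at most 1. In 7 of the 18 the count was 0 in 12 or more of the 24 libraries. At this depth their absence was not shown, only that they lie near or under what the libraries can count.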

How the data were processed

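RNA of HL-1 cells was sequenced in 24 libraries (4 groups of 6). The authors deposited estimated counts per protein-coding gene, not scaled to depth, and a second table of normalized signal. Per the submitters' processing notes, kallisto 0.44.0, DESeq2 1.18.1 and R 3.4.4 were used on GRCm38.p6; the sources used here do not give the annotation release, the strand setting or the scaling. In the deposited estimated counts 36.6% of values were whole (within 1e-09), and all were rounded before testing. Their depth, 23.6 to 54.8 M, limits members with few counts. The deposited normalized signal varies against the counts by gene, so it served only as an alternative scaling.

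All genes were fitted with edgeR 4.0.16 (R 4.3.3; TMM, filterByExpr with a minimum count of 10 and total of 15, robust quasi-likelihood, 1 coefficient per group, 20 residual degrees of freedom) and adjusted by Benjamini-Hochberg over 14411 genes. Levels are CPM after TMM, or CPM per kb of the longest GENCODE vM21 transcript (18387 genes have a length). SEs come from the fold change and F. The steps were tested on simulated data. DESeq2 1.42.0, limma 3.58.1 (voom), other scalings, filters and blocks, and leaving out each library were alternatives. No libraries of 1 group agreed within sampling noise (chi-square per gene at least 2.85 over 60 pairs). Members, gene lists and tests were chosen with earlier results of these data known. Full values are given for Itga5, Itgav, Itgb1, Itgb3, Itga7, Itgb5, Cdh2 and Cdh13 whatever their values, and for up to 12 called members with the largest fold change at an average log2 CPM of at least 1. Pathway genes are named by smallest adjusted p (3 per list and comparison) and largest fold change (2). The promoters printed were chosen after their values were seen.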

Additional observations from a re-analysis of the deposited data

Results flagged for a closer look

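In each group of 6 libraries, the highest or lowest value was compared with its nearest neighbour by Dixon's test of the gap at the 95% level. Of 124 groups of the 31 tested genes, 14 held such a value, and chance flags about 1 in 20 groups. Of the 14, 9 belonged to stretched control replicate 5, the library with the lowest depth. It was the highest of its group for Cdh24 at 51.7 CPM, for Itga11 at 1.14 CPM, for Itga4 at 8.58 CPM, for Itgae at 3.07 CPM, for Itgb4 at 6.42 CPM and for Itgb7 at 0.940 CPM. It was the lowest of its group for Itga1 at 97.6 CPM, for Itgav at 190.9 CPM and for Itgb1 at 866 CPM. Leaving it out kept the direction of every member call made in all 24 libraries.

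The other 5 values came from 5 libraries. Non-stretched knockdown replicate 4 was the highest of its group for Itgal at 3.59 CPM, and non-stretched knockdown replicate 2 was the lowest of its group for Itgb2 at 2.40 CPM. Among non-stretched control libraries, replicate 1 was the highest for Itga7 at 38.7 CPM, replicate 6 the highest for Itgav at 272 CPM and replicate 3 the lowest for Itgb3 at 2.56 CPM.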

How the results depend on the processing

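No called member changed direction under any alternative. With knockdown, 15 of 25 calls without stretch and 11 of 21 with stretch held under all alternatives that could be fitted (867 and 733 fits, of which 46 and 45 lost the call). Of the calls after stretch, 0 of 2 in control cells and 0 of 1 in knockdown cells held under all, losing 20 of 68 and 1 of 35 fits.

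In control cells, where 2 members passed after stretch, both higher, 0 passed when the fit held the groups compared alone. Dropping the filter left 1, the stricter filter 1 and the replicate block 1, each higher. The code letter as a block added 1 lower. Within code letter a, chosen after seeing the data, 4 passed, 2 of them lower, and within letter b 0. In knockdown cells 2 passed, higher, with the replicate block and 2 with the code letter block, against 1, and 0 within letter b. For knockdown against control, letter b left 5 higher without stretch, and 12 called and 1 higher with stretch. In the interaction 1 member passed, higher, with DESeq2 and 1 within letter a. Leaving out 1 library gave 0 to 4 members called after stretch in control cells (0 to 3 higher, 0 to 2 lower) and 1 to 2 in knockdown cells (1 to 2 higher). It gave 22 to 27 for knockdown without and 17 to 22 with stretch, and 0 in the interaction.

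Per kb of merged exons, the shares in knockdown minus control without stretch were -6.40 percentage points for laminin (-5.27 by longest transcript), -2.08 for collagen (-2.54), -13.3 for type I (-8.89) and 13.8 for type II (9.71). With stretch they were -2.40 for collagen (-2.95), -13.0 for type I (-8.86) and 13.5 for type II (9.52).

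Of all genes, 5.95% passed after stretch in control cells, of which 42.9% were higher. This became 3.05% (60.7% higher) with no filter, 2.73% (58.9% higher) with only the groups compared, 14.0% without stretched control replicate 5, 23.8% within letter a and 0.221% within letter b, and the stricter filter gave 57.0% higher. In knockdown cells the share was 1.05% within letter b, 5.78% within letter a and 5.26% with no filter, against 8.93%. The interaction ranged over 0 to 559 genes, against 3.

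Replicate numbers are shared by the groups, and same-numbered libraries also carry the same code letter. Over all tested genes, their deviations from the group means correlated at -0.064 to 0.137, with 1 of 24 over 0.1. In each comparison 1 to 3 of 6 libraries correlated best with their own number. These weak correlations do not show a pairing and cannot exclude one. The replicate block gave 10 higher and 16 lower members for knockdown without stretch, 7 and 14 with stretch, and 0 in the interaction. With that block the call of Itga9 after stretch in control cells was lost (edgeR adjusted p = 0.0559). With no filter the knockdown calls of Itga5 (0.0704 without and 0.123 with stretch), Cdh20 (0.0832 and 0.0523), Itgav (0.122 without stretch) and Cdh17 (0.0503 without stretch) were lost. Members with few counts are limited by depth.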
